A study of Mus musculus with 16 samples.

Results

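A set of 10 genes that hepatocytes around the central vein express, or that Wnt signalling controls in those cells, is described here in livers of mice fed a high-fat diet. They are Glul, Oat, Slc1a2, Rhbg, Lgr5, Axin2, Tbx3, Rgn, Gulo and Lect2, taken by symbol from the deposited tables. Each of the 10 stands on a single one of the 55487 rows of the count table, and all 10 passed the filter on low counts that left 13905 genes for testing. The sequenced livers came from mice with hepatocyte-specific changes in the spliced forms of JNK1 and JNK2, kinases of the stress response.

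The control group, named GFP, has 5 libraries. The group named Cre has 5 libraries and is given as the 7a form, and the group named Flpo has 6 libraries and is given as the 7b form. Every library, the controls included, carries the genotype written J1 J2 lf/lf on the C57/Bl6J strain, and all livers came from mice on the same diet. Cre and Flpo are recombinases that cut DNA at loxP and FRT sites. The sources used here do not give their delivery, the promoter behind them, or the age and sex of the mice. Counts summed over Mapk8 and Mapk9, the genes of JNK1 and JNK2, cannot show which exon was used, so the isoform names were not checked.

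Hepatocytes differ along the line from the portal vein, where blood enters the lobule, to the central vein, where it leaves. Endothelial cells of the central vein release Wnt ligands and R-spondins, which stabilise beta-catenin in the hepatocytes next to them. Those cells capture the ammonia that escaped the urea cycle upstream and bind it into glutamine. Beta-catenin enters the nucleus with TCF and LEF factors and switches on both metabolic genes of that zone and genes that restrain the pathway itself.

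Libraries held 27929393 to 36043322 counts, over 17024 to 18231 genes above 0 in each. Alb, the gene of serum albumin and a defining hepatocyte transcript, lay between 54140 and 80960 counts scaled to the library (CPM) over all 16 libraries. The titles number each library, but no label states that each is a separate mouse. The p-values here set group differences against the spread between libraries, which may not be that between mice. Numbers in the titles follow the groups in blocks, and any batch of animals or of harvest that followed the groups cannot be told apart from them. A clock score, the mean standardised level of 8 genes that peak toward dusk less that of 5 that peak toward dawn, spanned -2.11 to 0.17 for Cre, -0.90 to 0.85 for GFP and 0.52 to 1.74 for Flpo. Cre and Flpo did not overlap in it. Transcripts of the major urinary proteins made up at least 5.65% and at most 13.8% of a Cre library, against 2.24% to 3.91% for GFP and 1.95% to 6.49% for Flpo.

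In GFP, on the per-length scale of TPM, which divides counts by gene length and library total, the mean levels were 632 ± 93.8 for Rgn (SD, n = 5), 560 ± 58.8 for Oat and 472 ± 43.9 for Glul. Lect2 stood at 241 ± 41.8, Gulo at 220 ± 24.0 and Slc1a2 at 40.1 ± 3.80 TPM. The genes of the signalling pathway were scarcer, with Tbx3 at 9.96 ± 2.58, Axin2 at 3.50 ± 0.909 and Lgr5 at 1.32 ± 0.246 TPM, and the ammonium transporter Rhbg at 7.97 ± 2.25. From the highest mean to the lowest, the GFP ranges of neighbours overlapped between Rgn and Oat, Oat and Glul, Lect2 and Gulo, and Tbx3 and Rhbg, and were apart between the others. In Flpo, Oat stood above Rgn and Rhbg above Tbx3, and in Cre, Gulo stood above Lect2 and Axin2 above Rhbg, each time with overlapping ranges. The last of these swaps set Axin2 at 5.60 ± 0.920 against Rhbg at 3.95 ± 1.61 TPM.

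The pericentral genes did not move as a block. Between Flpo and Cre, Glul and Rhbg were higher in Flpo, while Axin2 and Tbx3 were lower in Flpo. Axin2 was also higher in Cre than in GFP. None of these calls held with the clock score as a covariate. Cre and Flpo did not overlap in that score, so for Flpo against Cre that fit cannot separate group from score. The same limit holds for every later count of calls in that comparison with the score. The call of Tbx3 held in 22 of 28 other settings. Between Flpo and GFP, 0 members passed in edgeR's test, DESeq2, limma-voom or limma on TPM, and 4 had an unadjusted p under 0.05. The other 6 genes, Oat, Slc1a2, Lgr5, Rgn, Gulo and Lect2, did not pass in edgeR's test in any of the 3 comparisons. Other tools called some of them: in Flpo against Cre, DESeq2 called Slc1a2 and Lect2, limma-voom called Lect2, and limma on log2(TPM + 1) called Oat, Slc1a2 and Lect2, and the last of these also in Cre against GFP.

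Calls required a p under 0.05 in edgeR's quasi-likelihood test after Benjamini-Hochberg adjustment over all 13905 genes. In Cre against GFP, 1 of the 10 was called, as higher, where 3.97% of all genes tested were called higher, 5.58% lower and 9.55% in either direction. The CPM values of the groups did not overlap for 1 of the 10, against 8.2% of all genes. In Flpo against GFP, 0 of the 10 were called, where 0% of genes were called higher, 0.0288% lower and 0.0288% in either direction. DESeq2, limma-voom and limma on TPM also called 0 of the 10 there, and 4 of the 10 had an unadjusted p under 0.05 in edgeR's test. The groups did not overlap for 1 of the 10, against 1.55% of all genes. Between Flpo and Cre, 4 of the 10 were called, 2 higher and 2 lower, where 7.45% of genes were called higher, 6.26% lower and 13.7% in either direction. The groups did not overlap for 3 of the 10, against 7.84% of all genes. The last comparison and the first share the Cre libraries, so a level that is unusual in Cre enters both.

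Over the 10 genes the median log2 fold change was 0.02 for Cre against GFP, 0.26 for Flpo against GFP, and for Flpo against Cre 0.32. The medians over all genes tested were 0.00, -0.01 and 0.00. By sign alone, 5 genes were higher and 5 lower in Cre against GFP, and 8 higher and 2 lower in each of the other comparisons. The 2 below zero in Flpo were Axin2 and Tbx3 both times. Fold changes here are relative to TMM scaling, which takes most genes as level. Scaling by library totals alone moved the median over all genes to -0.14 in Cre against GFP and to 0.13 in Flpo against Cre, and the median of the 10 to -0.12 and 0.45.

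**Figure D1:**
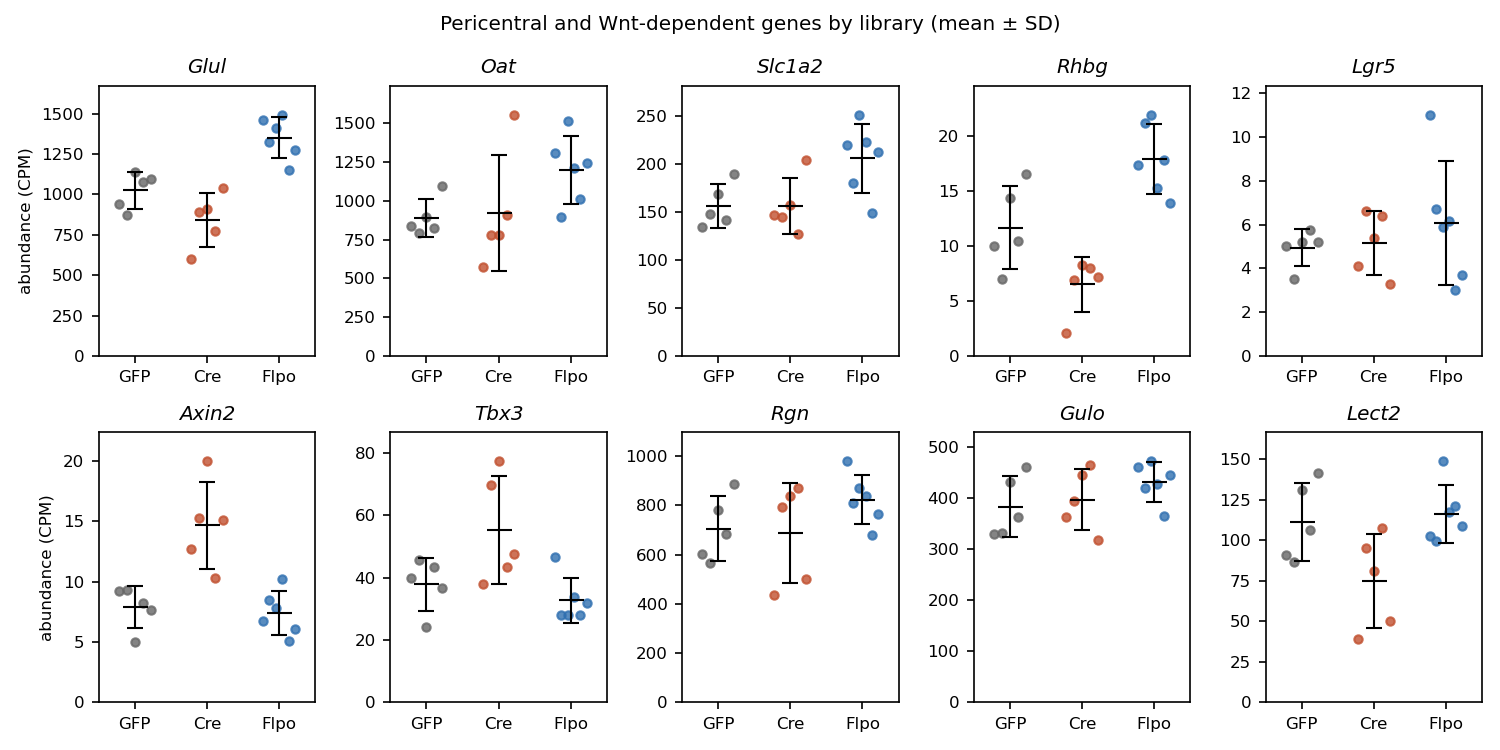
Abundance of each of the 10 genes in every library, in CPM on a linear axis that starts at 0, with points for libraries and bars for the mean ± SD of GFP (n = 5), Cre (n = 5) and Flpo (n = 6). All 5 Cre libraries lie above GFP for Axin2, and all 6 Flpo libraries lie above both other groups for Glul.

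Promoter sequences are shown for Axin2 and Glul, for which 1 group overlapped with neither of the others. They are also shown for Slc1a2 and Lect2, whose windows hold a TCF/LEF motif. The set of RefSeq start sites (GRCm38.p6) used here covered 5 of the 10 genes, namely Glul, Oat, Slc1a2, Axin2 and Lect2. The other genes were not in that set, and their windows were not read. The 250 bases before each start were read on the strand of the gene, 5′ to 3′. Capitals mark a match to the TCF/LEF motifs CTTTGAA and CTTTGAT and CTTTGTA and CTTTGTT, which were searched on both strands. The windows are chr11:108920099-108920348 for Axin2 (plus strand), chr1:153899679-153899928 for Glul (plus), chr2:102706188-102706437 for Slc1a2 (plus) and chr13:56548539-56548788 for Lect2 (minus).
Axin2: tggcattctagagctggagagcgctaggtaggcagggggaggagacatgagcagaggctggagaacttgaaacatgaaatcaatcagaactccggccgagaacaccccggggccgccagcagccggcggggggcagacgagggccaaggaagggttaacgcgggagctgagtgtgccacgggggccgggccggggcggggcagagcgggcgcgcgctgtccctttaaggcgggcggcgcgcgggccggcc
Glul: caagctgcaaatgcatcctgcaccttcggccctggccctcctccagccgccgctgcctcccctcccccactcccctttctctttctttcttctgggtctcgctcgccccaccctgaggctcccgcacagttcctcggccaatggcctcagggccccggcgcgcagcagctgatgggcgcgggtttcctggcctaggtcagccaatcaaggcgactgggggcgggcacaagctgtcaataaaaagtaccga
Slc1a2: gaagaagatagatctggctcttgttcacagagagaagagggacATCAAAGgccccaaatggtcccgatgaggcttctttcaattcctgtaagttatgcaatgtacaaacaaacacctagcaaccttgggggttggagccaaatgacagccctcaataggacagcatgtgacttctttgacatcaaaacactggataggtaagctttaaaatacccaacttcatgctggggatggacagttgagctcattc
Lect2: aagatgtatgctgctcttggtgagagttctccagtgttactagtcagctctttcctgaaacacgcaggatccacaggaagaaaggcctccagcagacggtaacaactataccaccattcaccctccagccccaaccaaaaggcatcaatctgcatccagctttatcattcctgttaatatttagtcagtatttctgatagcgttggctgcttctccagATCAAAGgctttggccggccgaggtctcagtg
The match in Slc1a2 lies 207 bases before the start and that in Lect2 32 bases before it, both as CTTTGAT on the opposite strand. Windows of Glul, Oat and Axin2 hold none of the 4 motifs. Only these 250 bases were read, so matches farther upstream or inside the genes were not sought. Of 32851 windows of the same length, 14.8% hold at least 1, with 4.46% for CTTTGAA, 3.21% for CTTTGAT, 3.2% for CTTTGTA and 5.03% for CTTTGTT. GC content was 69.2% in the window of Axin2, 64.8% in Glul, 60.0% in Oat, 48.0% in Lect2 and 44.8% in Slc1a2. The RefSeq start of Slc1a2 lies inside the gene as GENCODE bounds it, so that window does not lie at the start given by GENCODE.

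Glul encodes glutamine synthetase, which joins ammonia to glutamate and is confined in liver to the last layers of hepatocytes before the central vein. It lies on chromosome 1 from 153899944 to 153909723, plus strand, in the GENCODE annotation of GRCm38, which also gives the positions that follow. All 10 genes are protein coding. Glul abundance was 938, 875, 1142, 1075 and 1095 CPM in GFP and 598, 894, 911, 775 and 1040 in Cre. In Flpo it ran from 1153 to 1493 with a median of 1368. The lowest Flpo library lay above the highest of either other group, while GFP and Cre overlapped. GFP had a mean of 1025 ± 113 CPM (SD, n = 5), Cre of 844 ± 166 (n = 5) and Flpo of 1353 ± 127 (n = 6). In Flpo against Cre the difference was 1.60-fold, a log2 fold change of 0.68 (SE 0.12, 95% interval 0.42 to 0.95) with an adjusted p of 0.00137. In Flpo against GFP it was 0.40 (SE 0.12, interval 0.14 to 0.67) and did not pass after adjustment, at 0.313. In Cre against GFP it was -0.28 (SE 0.13, interval -0.56 to -0.01) with an adjusted p of 0.182. That last difference was -0.43 with library totals and -0.48 on log2(TPM + 1), where it passed at adjusted p = 0.0259 and 0.0164.

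Rhbg encodes an ammonium transporter of the Rhesus family in the membrane of the same cells. Its place is chromosome 3, from 88242874 to 88254709, minus strand. In GFP it stood at 9.98, 7.03, 14.3, 10.4 and 16.6 CPM, and in Cre at 2.11, 6.89, 8.28, 8 and 7.18. Flpo ran from 13.8 to 21.9 with a median of 17.6. Every Flpo library exceeded every Cre library, and both of those groups overlapped with GFP, which lay between them. Means were 11.7 ± 3.78 in GFP, 6.49 ± 2.52 in Cre and 17.9 ± 3.18 in Flpo. Flpo exceeded Cre 2.75-fold, at a log2 fold change of 1.46 (SE 0.28, interval 0.86 to 2.07) and an adjusted p of 0.00221, the largest difference among the 10 genes in any comparison. Without Cre replicate 1, which stood far below its group, it was 1.23 with an adjusted p of 0.000971. In Cre against GFP the change was -0.84 (SE 0.29, interval -1.46 to -0.22) with an adjusted p of 0.075. It passed without GFP replicate 2 (-0.97, adjusted p = 0.0487), with library totals (-0.98, 0.0262), in DESeq2 (-0.84, 0.0294) and on log2(TPM + 1) (-0.90, 0.0163). In Flpo against GFP it was 0.62 (SE 0.27, interval 0.03 to 1.20) with an adjusted p of 0.472.

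Slc1a2 encodes the glutamate transporter GLT-1, which in liver brings in glutamate for glutamine synthesis. The gene lies on chromosome 2 from 102658659 to 102790784, plus strand. Its levels were 134, 148, 168, 142 and 190 CPM in GFP and 147, 145, 157, 127 and 204 in Cre, and these groups overlapped almost fully. Flpo ran from 149 to 251 with a median of 216, and 2 of its libraries, replicates 2 and 5, lay within the range of the others. The change was 0.40 both against GFP (SE 0.14, interval 0.10 to 0.70, adjusted p = 0.379) and against Cre (SE 0.14, interval 0.10 to 0.70, adjusted p = 0.0628). Against Cre it passed without Cre replicate 5 (0.52, adjusted p = 0.0164) and without Flpo replicate 5 (0.46, 0.0294), and also with library totals (0.54, 0.00665), in DESeq2 (0.39, 0.0454) and on log2(TPM + 1) (0.59, 0.0035). Cre against GFP gave 0.00 (SE 0.14, interval -0.31 to 0.31, adjusted p = 0.993).

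Oat encodes ornithine aminotransferase, a mitochondrial enzyme that turns ornithine into a precursor of glutamate. The gene is on chromosome 7 from 132557478 to 132576398, minus strand. Cre held both extremes, with 574, 782, 778, 909 and 1553 CPM, while GFP held 836, 790, 896, 825 and 1096. Flpo ran from 898 to 1512 with a median of 1228, and all 3 groups overlapped. Flpo against Cre gave 0.38 (SE 0.20, interval -0.05 to 0.81, adjusted p = 0.229), and without Cre replicate 5, the highest library, 0.65 with an adjusted p of 0.00822. On log2(TPM + 1) it was also 0.65, with an adjusted p of 0.0297. Flpo against GFP gave 0.43 (SE 0.20, interval 0.00 to 0.86, adjusted p = 0.506). Cre against GFP gave 0.05 (SE 0.21, interval -0.40 to 0.49, adjusted p = 0.92), a value that turned to -0.22 without Cre replicate 5.

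Axin2 encodes a scaffold of the complex that marks beta-catenin for destruction. It is switched on by the pathway that it restrains and is widely read as a reporter of Wnt signalling. It lies on chromosome 11 from 108920349 to 108950783, plus strand. GFP stood at 9.25, 9.31, 5.01, 8.24 and 7.65 CPM and Cre at 12.7, 15.3, 19.96, 10.3 and 15.1. Flpo ran from 5.11 to 10.2 with a median of 7.29. Every Cre library lay above every library of the other groups, with Cre replicate 4 and Flpo replicate 4 nearly touching, and GFP and Flpo overlapped. Means were 7.89 ± 1.76 in GFP, 14.6 ± 3.59 in Cre and 7.43 ± 1.83 in Flpo. Axin2 rose 1.85-fold in Cre against GFP, at a log2 fold change of 0.89 (SE 0.21, interval 0.44 to 1.34) and an adjusted p of 0.0114. In Flpo against Cre it was 0.51 times as abundant, at -0.98 (SE 0.20, interval -1.40 to -0.55) and an adjusted p of 0.00282. Between Flpo and GFP the difference was -0.09 with an interval of -0.52 to 0.34 (SE 0.20, adjusted p = 0.913).

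Tbx3 encodes a T-box transcription factor that Wnt signalling induces in liver. Chromosome 5 holds it from 119670669 to 119684724, plus strand. Cre held 37.98, 69.7, 77.3, 43.5 and 47.7 CPM and GFP 39.8, 45.7, 24.0, 43.5 and 36.6. Flpo ran from 27.9 to 46.6 with a median of 30.1. Replicates 2 and 3 of Cre stood far above the rest, and Flpo replicate 1 lay among the other 3 Cre libraries. Flpo against Cre was 0.59-fold, at -0.75 (SE 0.20, interval -1.18 to -0.32) with an adjusted p of 0.0178. The call was lost without Cre replicate 2 (-0.66, adjusted p = 0.0537), without Cre replicate 3 (-0.61, 0.057) and on log2(TPM + 1) (-0.47, 0.0873). Cre against GFP gave 0.54 (SE 0.21, interval 0.09 to 0.99, adjusted p = 0.115) and Flpo against GFP -0.21 (SE 0.20, interval -0.64 to 0.22, adjusted p = 0.77).

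Lgr5 encodes a receptor for R-spondins, which strengthen the Wnt signal at the cell surface. Its position is chromosome 10 from 115450311 to 115587780, minus strand. GFP held 5.04, 3.51, 5.22, 5.74 and 5.22 CPM and Cre 4.11, 6.64, 5.37, 6.41 and 3.30. Flpo ran from 3.003 to 11.0 with a median of 6.02. The 3 groups overlapped, and the widest spread was in Flpo. Differences were 0.06 for Cre against GFP (SE 0.29, interval -0.55 to 0.68, adjusted p = 0.925), 0.30 for Flpo against GFP (SE 0.27, interval -0.29 to 0.89, adjusted p = 0.765) and, with Cre as the base, 0.23 (SE 0.27, interval -0.36 to 0.83, adjusted p = 0.631). Without Flpo replicate 1, the highest library, the Flpo values became 0.04 and -0.04.

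Rgn and Gulo encode enzymes of ascorbate synthesis, a pathway that mice keep and humans have lost. Regucalcin, the product of Rgn on the X chromosome (20549787 to 20562089, plus strand), is the lactonase, and Gulo on chromosome 14 (65986786 to 66009207, minus strand) encodes the oxidase of the last step. Rgn stood at 604, 565, 783, 683 and 888 CPM in GFP, at 436, 795, 837, 871 and 499 in Cre, and between 681 and 978 with a median of 823 in Flpo. Gulo stood at 330, 331, 431, 363 and 460 CPM in GFP, at 361, 393, 445, 464 and 318 in Cre, and between 364 and 471 with a median of 435 in Flpo. All 3 groups overlapped for both genes, and Cre replicates 1 and 5 were the lowest of their group in both. Rgn differed by -0.03 for Cre against GFP (interval -0.42 to 0.35, adjusted p = 0.936), 0.22 for Flpo against GFP (-0.15 to 0.60, adjusted p = 0.708) and 0.26 for Flpo with Cre as the base (-0.11 to 0.63, adjusted p = 0.36). Gulo differed by 0.05 (interval -0.21 to 0.31, adjusted p = 0.85), 0.17 (-0.08 to 0.42, adjusted p = 0.665) and 0.12 (-0.13 to 0.37, adjusted p = 0.538) in the same order. The intervals for Gulo were the narrowest of the 10 genes in each comparison.

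Lect2 encodes leukocyte cell-derived chemotaxin 2, a protein that hepatocytes secrete and whose gene beta-catenin induces. It lies on chromosome 13 from 56542464 to 56548502, minus strand. Cre held 39.4, 95.4, 81.1, 108 and 50.4 CPM, with replicates 1 and 5 low as for Rgn. GFP held 91.3, 86.5, 131, 106 and 141, and Flpo ran from 99.6 to 149 with a median of 113. Cre overlapped with both other groups. Cre against GFP gave -0.57 (SE 0.23, interval -1.06 to -0.08, adjusted p = 0.127) and Flpo against Cre 0.64 (SE 0.22, interval 0.17 to 1.11, adjusted p = 0.0633). Both passed without Cre replicate 4, at -0.74 (adjusted p = 0.0468) and 0.81 (0.0198), and on log2(TPM + 1), at -0.83 (0.0272) and 0.93 (0.00894). The second also passed with library totals (0.76, 0.0258), in DESeq2 (0.63, 0.0252) and in limma-voom (0.72, 0.0353). Flpo against GFP gave 0.07 (SE 0.22, interval -0.40 to 0.53, adjusted p = 0.943).

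**Figure D2:**
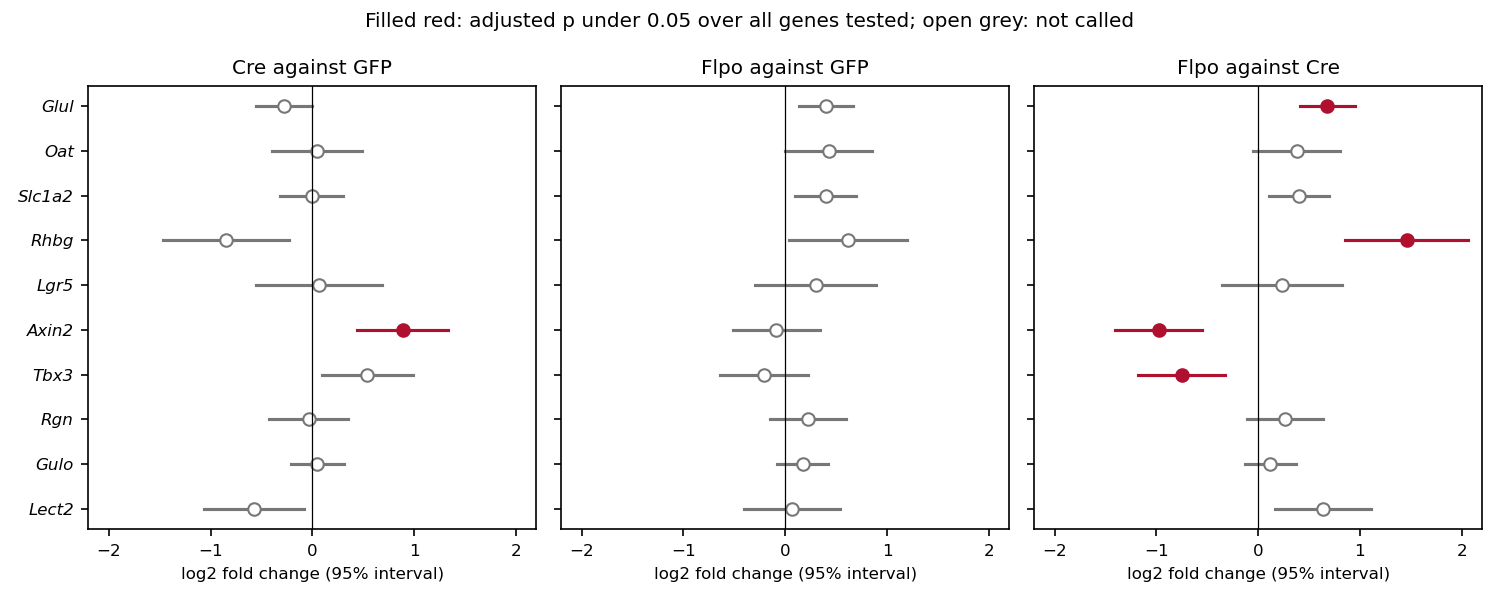
Log2 fold change of each of the 10 genes with its 95% interval in each of the 3 comparisons, Cre with GFP, Flpo with GFP and Flpo with Cre, filled red where the adjusted p over all genes was under 0.05. Filled points are Axin2 in the first panel, none in the second, and Glul, Rhbg, Axin2 and Tbx3 in the third, where the last 2 lie below zero.

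The clock score separated Cre from Flpo without overlap, so these groups and the clock score cannot be told apart. With the score as a covariate, 0 of the 10 genes were called in any comparison, and the genes called in all fell to 215 between Cre and GFP, 0 between Flpo and GFP and 19 between Flpo and Cre. In that fit Axin2 gave 0.55 in Cre against GFP (adjusted p = 0.348). In Flpo against Cre, Glul gave 0.58 (adjusted p = 0.501), Rhbg 0.54 (0.835), Axin2 -0.40 (0.845) and Tbx3 -0.24 (0.922). Against the values without the covariate, Glul moved from 0.68, Rhbg from 1.46, Axin2 from -0.98 and Tbx3 from -0.75. Cre replicate 4, the Cre library whose clock score lay inside the range of GFP, had the lowest Axin2 of its group at 10.3 CPM, above every GFP library, and a Glul of 775 CPM, below every GFP library. Its Rhbg of 8 CPM and its Tbx3 of 43.5 CPM lay inside the GFP ranges, which were 7.03 to 16.6 and 24.0 to 45.7. GFP replicates 1 and 2 had the lowest scores of GFP, at -0.90 and -0.79. They also had its lowest Glul (938 and 875 CPM) and Rhbg (9.98 and 7.03) and its highest Axin2 (9.25 and 9.31). Their Tbx3, at 39.8 and 45.7, stood on both sides of GFP replicate 4. Flpo replicates 1 and 6, at scores of 0.63 and 0.52, lay inside the GFP range too, with Glul at 1459 and 1274 CPM. How levels follow the score within a group was not tested. The clock genes that make up the score moved between the groups, so their counts restate the score. Among all genes tested, 9.55% were called in Cre against GFP and 13.7% in Flpo against Cre. Of the 5 dawn genes, 3 fell and 0 rose in Flpo against Cre, and of the 8 dusk genes, 6 rose and 1, Nr1d1, fell. In Cre against GFP, 3 dusk genes fell. There 0 dawn genes passed in edgeR's test, limma-voom or limma on TPM, while DESeq2 called 2 and 4 had an unadjusted p under 0.05.

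**Figure D3:**
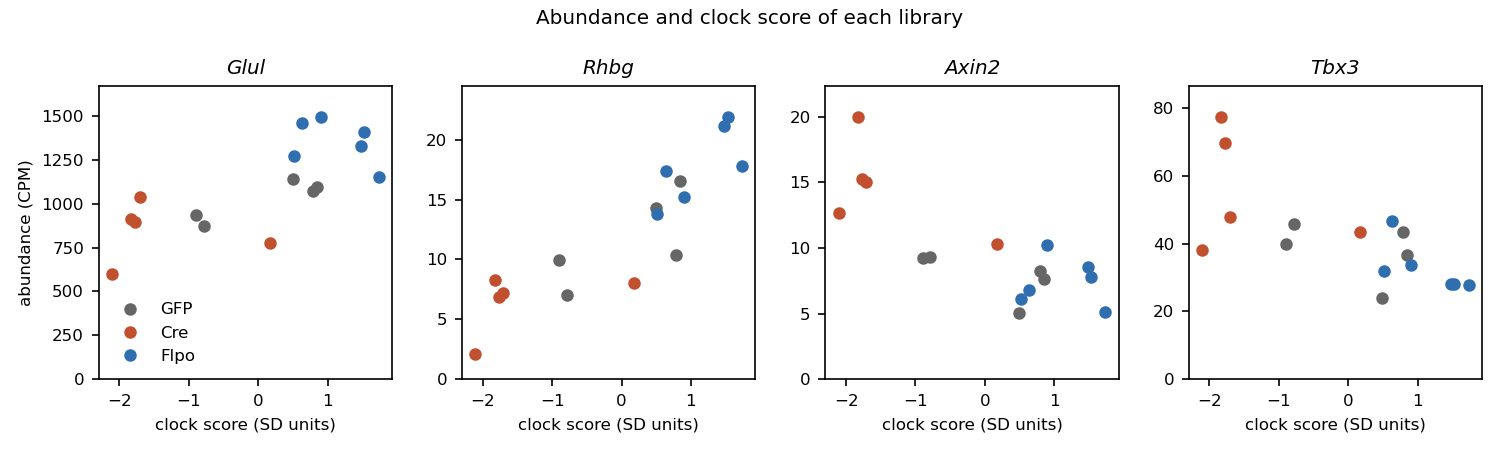
Abundance of Glul, Rhbg, Axin2 and Tbx3 in CPM (vertical axis, linear, from 0) against the clock score of each library in SD units (horizontal axis), coloured by group. Cre libraries lie at scores from -2.11 to 0.17 and Flpo libraries from 0.52 to 1.74, with GFP between and partly over both.

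Among all 13905 genes tested, 9.55% were called in Cre against GFP and 13.7% in Flpo against Cre. Other pericentral genes also moved in both directions. Of 21 tested, 2 rose and 4 fell in Cre against GFP, and 7 rose and 1 fell in Flpo against Cre, with median log2 fold changes of -0.14 and 0.17. The vasopressin receptor gene Avpr1a rose from 11.7 ± 2.85 CPM in GFP to 36.1 ± 4.82 in Cre and stood at 10.7 ± 3.27 in Flpo. Its log2 fold changes were 1.62 in Cre against GFP (SE 0.21, adjusted p = 0.00011) and -1.76 in Flpo against Cre (SE 0.19, adjusted p = 2.3e-05), so it had the direction of Axin2. The organic cation transporter gene Slc22a3 fell in Cre against GFP (-1.65, SE 0.29, adjusted p = 0.00182). The glutathione transferase gene Gstm2 fell there too (-0.78, SE 0.17, adjusted p = 0.00793), as did the dicarboxylate transporter gene Slc13a3 (-1.16, SE 0.28, adjusted p = 0.0142). In Flpo against Cre, Gstm2 rose (0.92, SE 0.16, adjusted p = 0.00129), Slc13a3 rose (1.40, SE 0.27, adjusted p = 0.00239) and the retinal dehydrogenase gene Aldh1a1 rose (1.10, SE 0.21, adjusted p = 0.00206), which is the direction of Glul and Rhbg. With the clock score as a covariate, 2 of the 21 rose and 1 fell in Cre against GFP, where Gstm2 and Slc13a3 were no longer called, and 0 were called in Flpo against Cre. The textbook pericentral enzymes Cyp2e1 and Cyp1a2 did not pass in any comparison, with -0.14 and 0.58 for Cre against GFP, 0.10 and 0.17 for Flpo against GFP, and 0.24 and -0.41 for Flpo against Cre (adjusted p from 0.138 to 0.839).

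Periportal genes were counted beside them, against the same 9.55% and 13.7% of all genes tested. Of 22 tested, 3 rose and 0 fell in Cre against GFP, with a median of 0.45, and 3 rose and 3 fell in Flpo against Cre, with a median of -0.40. Pck1, the gene of the first committed step of gluconeogenesis, rose from 1374 ± 615 CPM in GFP to 3411 ± 773 in Cre (1.31, SE 0.25, adjusted p = 0.00381) and was 1885 ± 421 in Flpo. Sox9 (1.31, SE 0.26, adjusted p = 0.00455), a transcription factor of bile duct cells and nearby hepatocytes, and Cdh1 (1.75, SE 0.44, adjusted p = 0.0216), the gene of E-cadherin, rose as well, and all 3 fell in Flpo against Cre. The fall of Pck1 was lost without Cre replicate 1 or Cre replicate 5, with no filter on low counts, on both TPM scales and with the clock score. The call of Cdh1 in Cre against GFP was lost without GFP replicate 3 or GFP replicate 5, with no filter and with the clock score. The 3 that rose in Flpo against Cre were Pigr (0.43, adjusted p = 0.0219), Uroc1 (0.46, 0.0262) and Hsd17b13 (0.60, 0.0282). Their calls held in 26, 20 and 18 of 28 other settings. With the clock score as a covariate 0 of the 22 were called in either comparison. With library totals the counts in Cre against GFP were 3 up and 3 down, with a median of 0.31. That median was 0.15 on log2(TPM + 1) and 0.27 with the clock score. For Flpo against Cre the median of the 22 was -0.26 with library totals, -0.02 on log2(TPM + 1) and 0.14 with the clock score. Cyp2f2, the usual periportal marker, gave 0.23, -0.01 and -0.24 in the comparisons of Cre with GFP, Flpo with GFP and Flpo with Cre, and passed in none (adjusted p = 0.256, 0.984 and 0.184).

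Genes of the Wnt pathway itself were counted by role, beside the 9.55% of all tested genes called in Cre against GFP and the 13.7% called in Flpo against Cre. Of 10 tested genes for Wnt ligands, R-spondins and secreted modulators, 0 passed in any comparison by edgeR's test, 0 had an unadjusted p under 0.05, and DESeq2, limma-voom and limma on TPM also called 0. Wnt2 and Wnt9b, ligands of the central vein endothelium, stood at 1.78 ± 0.466 and 0.751 ± 0.408 CPM in GFP, and Rspo3, the R-spondin of the same cells, at 4.19 ± 0.468. Their changes in Cre against GFP were 0.33, 0.52 and 0.15 (adjusted p = 0.58, 0.524 and 0.639). Between Flpo and Cre they were -0.24, 0.01 and -0.01 (adjusted p = 0.659, 0.99 and 0.989). Transcripts of beta-catenin, from Ctnnb1, differed by 0.04 for Cre with GFP, 0.02 for Flpo with GFP and -0.02 for Flpo with Cre (adjusted p = 0.806, 0.949 and 0.897).

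Among 23 receptors and parts of the beta-catenin machinery, 1 rose and 1 fell in Cre against GFP, and 1 rose and 5 fell in Flpo against Cre. With library totals 1 rose and 3 fell in each, and on log2(TPM + 1) 0 rose and 2 fell in the first and 1 rose and 2 fell in the second. With the clock score as a covariate, 0 of these 23 and 0 of the 9 targets counted next were called in either. The co-receptor gene Lrp5 rose in Cre from 86.1 ± 13.3 to 122 ± 12.4 CPM (0.50, SE 0.11, adjusted p = 0.00945), a call that was lost on both TPM scales, and was lower in Flpo than in Cre (-0.76, SE 0.11, adjusted p = 0.000172). The receptor gene Fzd4 went the other way, with -0.76 (SE 0.19, adjusted p = 0.0172) and 0.94 (SE 0.18, adjusted p = 0.00239). Fzd6 (-1.27, SE 0.29, adjusted p = 0.00651) was also lower in Flpo than in Cre. Of 9 other Wnt target and feedback genes, 1 rose and 1 fell in each of these comparisons, and with library totals 0 rose and 1 fell in the first and 2 rose and 0 fell in the second. Tnfrsf19 fell in Cre (-0.88, SE 0.15, adjusted p = 0.00173) and rose in Flpo against Cre (1.21, SE 0.15, adjusted p = 5.71e-05). Notum, a secreted inhibitor of Wnt ligands, rose in Cre by 0.33 (SE 0.09, adjusted p = 0.0292) and fell in Flpo against Cre by 0.27 (SE 0.09, adjusted p = 0.0473), calls that held in 18 and 14 of 28 other settings and were lost with library totals. Without each of GFP replicates 2 and 4 and Cre replicates 2 and 3 the first was lost, and without GFP replicate 5, Cre replicates 2, 3 and 4 and Flpo replicates 4, 5 and 6 the second was.

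Genes that work beside the members were counted by pathway. All genes tested were called at 9.55% in Cre against GFP and 13.7% in Flpo against Cre. Of 13 tested genes that handle glutamate, glutamine and ornithine, 1 rose and 2 fell in Cre against GFP, and 2 rose and 1 fell in Flpo against Cre. Prodh and Aldh4a1, consecutive enzymes of proline breakdown to glutamate, fell in Cre (-0.73, SE 0.17, adjusted p = 0.0104, and -0.44, SE 0.11, adjusted p = 0.0203) and rose in Flpo against Cre (0.82, SE 0.16, adjusted p = 0.00264, and 0.66, SE 0.11, adjusted p = 0.000708). The first call of Aldh4a1 was lost without GFP replicate 5, in the fit of the 2 groups alone and with the replicate block. Got1, an aspartate aminotransferase, moved oppositely and varied widely in Cre, from 98.2 to 725 CPM, against 73.3 to 107 in GFP (2.11, SE 0.48, adjusted p = 0.0125). Of 5 tested genes of ascorbate synthesis and uptake other than Rgn and Gulo, 3 fell in Cre against GFP and 4 rose in Flpo against Cre. The ascorbate transporter gene Slc23a1 led both, with -0.70 (SE 0.11, adjusted p = 0.000665) and 0.63 (SE 0.10, adjusted p = 0.00073). Akr1a1, which encodes a reductase upstream of Rgn, fell by 0.34 (SE 0.09, adjusted p = 0.0195) and rose by 0.40 (SE 0.08, adjusted p = 0.0044), and its fall was lost without GFP replicate 4 and with the replicate block. With the clock score as a covariate, 0 of the 13 were called in either comparison, and of the 5, 1 fell in Cre against GFP and 0 were called in Flpo against Cre.

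**Figure D4:**
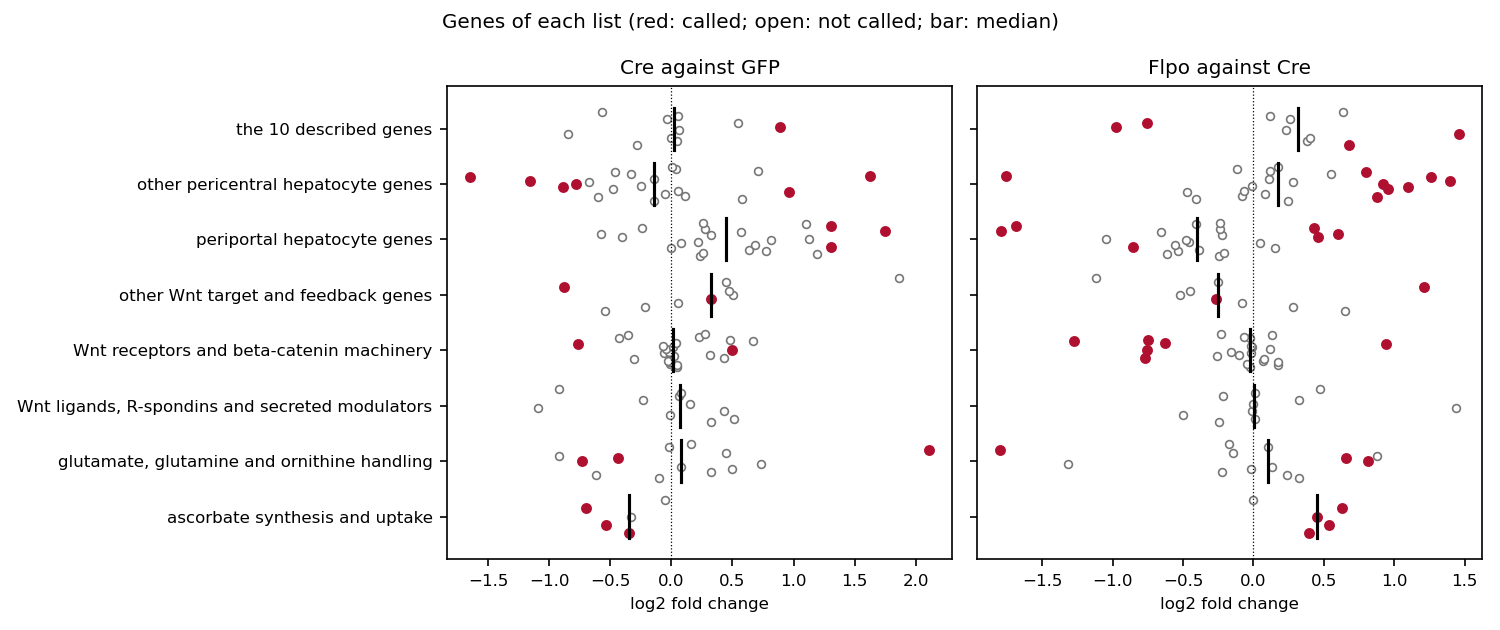
Log2 fold change of every tested gene in 8 lists, in Cre against GFP (left) and Flpo against Cre (right), with red for genes at an adjusted p under 0.05, open circles for the rest and a bar for the list median. On the right the ascorbate list has its 4 red points above zero, while the other lists hold red points on both sides or, for the ligands, none.

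In bulk liver, fewer cells of a type and less RNA per cell cannot be told apart, so markers of other cells were measured in the same libraries. Their counts stand beside the same 9.55% of all genes tested in Cre against GFP and 13.7% in Flpo against Cre. Summed endothelial markers ran from 101 to 127 CPM in GFP, 124 to 150 in Cre and 87.2 to 149 in Flpo, and of 14 tested 1 rose in Cre against GFP and 2 fell in Flpo against Cre. These counts were 0 and 1 with library totals, and 0 in both on log2(TPM + 1) and with the clock score. Summed stellate and fibroblast markers ran from 219 to 329 in GFP, 147 to 252 in Cre and 256 to 372 in Flpo. Of 12 tested, 5 fell in Cre against GFP and 6 rose in Flpo against Cre, with the collagen genes Col1a1, Col1a2 and Col3a1 in front at -1.76, -1.50 and -1.83 in the first (adjusted p = 0.00381, 0.000644 and 0.00458). With the clock score, 3 of the 12 fell in the first and 0 were called in the second. The direction is that of Glul and Rhbg, and the part of these cells in the members' differences was not tested.

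Kupffer cell markers summed to 91.6 to 168 CPM in GFP, 97.8 to 160 in Cre and 89.8 to 246 in Flpo, and 0 of 9 passed in edgeR's test, with 3 at an unadjusted p under 0.05 in Flpo against Cre, 1 called there by DESeq2, 3 by limma on TPM and 0 by limma-voom. By sign alone, 9 were higher and 0 lower in Flpo against Cre, with a median log2 fold change of 0.54. With library totals 2 of them were called there as higher. In Cre against GFP, 2 were higher and 7 lower by sign, with a median of -0.21. Of 9 hepatocyte markers, 1 rose and 1 fell in Cre against GFP and 2 fell in Flpo against Cre. Of 6 cholangiocyte markers, 1 rose in Cre against GFP, and 1 rose and 1 fell in Flpo against Cre. The gene that rose in the first and fell in the second was Sox9, also counted among the periportal genes. Lymphocyte and neutrophil markers summed to no more than 5.69 CPM in any library, and none of 7 tested passed or had an unadjusted p under 0.05. Among them, Ly6g was at 0 in all Cre libraries and at most 0.0348 CPM in GFP and 0.0687 in Flpo. Of 5 blood, fat and pancreas transcripts, 1 fell in Cre against GFP. The pancreatic gene Prss2 was at 0 in every library of all groups. Cpa1, also pancreatic, was at 0 in all Cre and all Flpo libraries and at most 0.104 CPM in GFP. Over the 175 tested genes of all these lists other than the 10 members, 0 passed in Flpo against GFP in edgeR's test, 27 had an unadjusted p under 0.05, and DESeq2, limma-voom and limma on TPM called 3, 0 and 0.

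Within groups, 0 of the 9 correlations of Glul with another member passed after adjustment. After removal of group means, over 16 libraries, Glul correlated with Oat at Pearson's r = 0.71 and Spearman's rho = 0.52 (two-sided permutation p = 0.0222 and 0.059). For Slc1a2 these were 0.63 and 0.66 (permutation p = 0.0166 and 0.0111), and for Rhbg 0.74 and 0.47 (permutation p = 0.0185 and 0.0937). Adjusted over the 9 genes compared, each r had a permutation p of 0.0665, and the values for rho were 0.265, 0.1 and 0.281. Without the 2 libraries farthest from the median of Glul, Cre replicates 1 and 4, r was 0.59, 0.75 and 0.50. Axin2 and Tbx3 gave r = 0.24 and 0.27 with Glul (adjusted permutation p = 0.439 for both), and without the same 2 libraries -0.03 and -0.26.

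Over all 45 pairs of members, examined after the values were seen, 6 passed by r and 1 by rho, and 38 had r above 0. The pair that passed by both was Rgn with Gulo, at r = 0.86 and rho = 0.89 (adjusted permutation p = 0.0108 and 0.0054), and r = 0.91 without the 2 libraries farthest from the median of Rgn. Rgn also correlated with Lect2 (r = 0.86, rho = 0.84, adjusted permutation p = 0.0243 and 0.0546) and Lgr5 (r = 0.69, rho = 0.72, 0.0142 and 0.0546). Rhbg correlated with Rgn (r = 0.75, rho = 0.72) and Lect2 (r = 0.76, rho = 0.68), each at adjusted permutation p = 0.0243 for r and 0.0592 for rho. Oat with Slc1a2 gave r = 0.72 and rho = 0.68 (adjusted permutation p = 0.0379 and 0.0592). Without the 2 farthest libraries the r of these 5 pairs was 0.58, 0.71, 0.57, 0.50 and 0.49. The points share library depth and the spread of the Cre group, where replicates 1 and 5 were low in Rgn, Gulo and Lect2.

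The genes whose pattern within groups was most like that of a member were sought among 11789 genes with a mean of at least 1 CPM, as a description over the 16 libraries. For Glul they were Dynll1 (r = 0.88), Hspb1 (0.84) and Mphosph10 (0.82). For Axin2 they were Med13 (0.88), Cep135 (0.82) and Thrap3 (0.77). For Gulo they were Fkbp4 (0.90), Cyp2c50 (0.88), itself among the other pericentral genes, and Xdh (0.87). None of the 3 lists contains another of the 10 members, but each stops at 3 genes. Rgn, at r = 0.86 with Gulo, came close to Xdh.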

How the data were processed

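Polyadenylated liver RNA was sequenced as paired reads of 150 bases, per the labels' protocols. The authors deposited estimated counts per gene and TPM, which corrects for gene length and depth. Per the submitters' processing notes, cutadapt and STAR were used with mm10. The sources used here do not give the counting program or strandedness. Of the count values, 31.7% were not whole.

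Estimated counts were rounded and tested in R 4.3.3 with edgeR 4.0.16, after filterByExpr (minimum count 10) and TMM scaling, in 1 robust quasi-likelihood fit over all 16 libraries. Calls needed an adjusted p under 0.05. Intervals use 13 residual degrees of freedom. The steps were tested on simulated data. No 2 libraries held identical counts.

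The members and all gene lists were chosen with earlier results of these data known. Genes eligible to be named were all members, Ctnnb1, Rspo3, Wnt2, Wnt9b, Cyp2e1, Cyp1a2 and Cyp2f2, per list and comparison up to 4 called genes with the smallest adjusted p or, where none was called, up to 2 with the smallest p, and the 3 genes most like Glul, Axin2 and Gulo. Not all of the list genes that qualified are printed. Alb, Nr1d1, Uroc1, Hsd17b13, Ly6g, Prss2 and Cpa1 fall outside this rule and were chosen after their values were seen.

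Alternatives were DESeq2-type size factors, library totals, no filter, a CPM filter, DESeq2 1.42.0, limma-voom (limma 3.58.1), limma on log2(TPM + 1) and log2(TPM + 0.1), a replicate block, fits of 2 groups alone, the clock score, a threshold of 0.01 and each library left out. Removal of the Mup genes and the correlations over all pairs were added after seeing the data.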

Additional observations from a re-analysis of the deposited data

Results flagged for a closer look

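In the group of 5 Cre libraries, Rhbg in replicate 1 stood at 2.11 CPM, and the next lowest library held 6.89. Its gap to that library, over the range of the group, was 0.775. Glul and Oat were also lowest in this library among the Cre libraries, at 598 and 574 CPM, as were Tbx3 at 37.98, Rgn at 436 and Lect2 at 39.4. Tbx3 in replicate 1 of Flpo stood at 46.6 CPM, with the next highest library at 33.8 and a ratio of 0.686. Lgr5 and Rgn were highest in the same library among the Flpo libraries, at 11.0 and 978 CPM. Of 30 groups of libraries examined (10 genes in 3 groups), these 2 stood apart, and chance alone gives about 1 in 20. With either of these 2 libraries left out, 4 of the 10 genes were called in Flpo against Cre, the same number as with both kept.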

How the results depend on the processing

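Stricter or other settings moved several counts of calls. Genes called in Cre against GFP (1328) became 475 at adjusted p under 0.01, 2104 and 2172 on log2(TPM + 1) and log2(TPM + 0.1), 834 with only the 2 groups and 215 with the clock score, and 960 to 1462 with 1 library left out. The members called there (1) became 0 at 0.01, 3 with library totals, 2 in DESeq2, 4 on both TPM scales and 0 with the clock score, and 1 to 2 with 1 library left out (2 without GFP replicate 2 or Cre replicate 4). In Flpo against GFP the 4 genes became 0 at 0.01, 72 in DESeq2, 0 in limma-voom, 1 with only the 2 groups and 0 with the clock score, and 0 to 15 with 1 library left out: 15 without GFP replicate 5 or Flpo replicate 1, 1 without GFP replicate 3, and 0 without GFP replicates 1 or 2 or Flpo replicates 3, 4 or 6. In Flpo against Cre the 1906 genes became 881 at 0.01 and 19 with the clock score, and 1454 to 2189 with 1 library left out. The 4 members called became 7 on log2(TPM + 0.1) and 0 with the clock score, and 3 to 6 with 1 library left out (3 without Cre replicate 2 or 3, 6 without Cre replicate 5). Library totals split the calls into 300 higher and 1656 lower in Cre against GFP and 1810 and 454 in Flpo against Cre, and log2(TPM + 1) into 216 and 1888, and 2417 and 326, against 552 and 776, and 1036 and 870 with TMM. The cause was not tested.

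Same-numbered libraries of different groups had a median r of 0.01 over 15 pairs, 1 of them over 0.1. Pairs of unlike number had a median of 0 over 70, with 2 over 0.1. The labels do not say what a shared number stands for. With the replicate block, without Flpo replicate 6, 1019, 0 and 1352 genes and 1, 0 and 3 members were called, with Tbx3 at -0.77 (adjusted p = 0.072) in Flpo against Cre.

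Of the members' fold changes over 28 settings, 758 kept direction and call, 27 gained a call, 10 lost one and 45 changed sign, all of these uncalled. In Cre against GFP, signs turned for Oat (-0.09 with totals, -0.02 in limma-voom, -0.21 on both TPM scales, -0.22 to 0.18 with 1 library left out), Slc1a2 (0.01 with size factors, the CPM filter, DESeq2, the block and without Mup genes, 0.00 with only the 2 groups, -0.12 to 0.08 with 1 left out), Lgr5 (-0.07 with totals, -0.07 and -0.13 on TPM, -0.04 to 0.19), Rgn (0.25 with the clock score, -0.13 to 0.10) and Gulo (-0.09 with totals, -0.13 on both TPM scales, -0.01 to 0.12). In Flpo against GFP they turned for Axin2 (0.15) and Lect2 (-0.26) with the clock score, and for Lect2 with 1 library left out (-0.02 to 0.17). In Flpo against Cre they turned for Rgn (-0.20), Gulo (-0.18) and Lect2 (-0.17) with the clock score, and for Lgr5 with 1 library left out (-0.04 to 0.36). The cause was not tested. Axin2 in Cre against GFP, and Glul, Rhbg and Axin2 in Flpo against Cre, were called in 27 of 28 settings, all but the clock score. Lgr5, Axin2 and Rhbg had the lowest CPM of the members, and the share of depth in their errors was not tested.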
